A study of Mus musculus with 9 samples.

Results

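The genes described here are 9 genes of adipocyte lipolysis, chosen by symbol from the gene list of each count matrix: Pnpla2, Lipe, Mgll, Abhd5, G0s2, Plin1, Adrb3, Pde3b and Aqp7. They are 9 of the 32285 genes in every matrix, and each was found once. They were measured by single-nucleus RNA sequencing of epididymal adipose tissue (epiAT), a visceral fat depot, from male C57BL/6J mice kept on different diets.

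Lipolysis is the stepwise breakdown of the triglyceride stored in lipid droplets to fatty acids and glycerol. Catecholamines start it through adrenergic receptors, cyclic AMP and protein kinase A, which phosphorylates the droplet coat and the lipases, and insulin restrains it by having cyclic AMP broken down. In fat tissue the pathway supplies fuel to other organs in fasting, and its basal and stimulated rates are known to be altered in obesity.

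There were 9 groups with 1 library each, and each library pooled the nuclei of 5 mice, so that no group had a replicate and differences between mice were not measured. The control groups C, CC and CCC, called chow as in the labels, were 18, 26 and 39 weeks old, and the study's methods give a low-fat diet for C and, during the weight-loss period, a standard chow for CC and CCC. H had 12 weeks of high-fat diet (HFD) and was 18 weeks old, and HH had 25 weeks and was 31 weeks old. In the weight-loss groups HC and HHC, 12 or 25 weeks of HFD were followed by 8 weeks of chow, to an age of 26 or 39 weeks. CCH was on control diets up to an age of 26 weeks, by the study's methods first low-fat and then chow, and then had 4 weeks of HFD. HCH had 12 weeks of HFD, 8 weeks of chow and 4 weeks of HFD, and both reached an age of 30 weeks. The labels name no transgene or allele. The labels also name a sequencing set: S075 held C, H, HH, CCH and HCH, and S019 held CC, CCC, HC and HHC, so HH and CCH had no chow library of similar age in their own set.

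The libraries held 5173 to 14833 barcodes. Nuclei were assigned to a class when at least 3 markers of the class were detected and at least 2 times as many as for every other class. None of the 9 lipolysis genes was among the 13 adipocyte markers. The adipocyte gate held 2383, 1525 and 1505 nuclei in the chow libraries C, CC and CCC. It held fewer on HFD, with 157 in H, 371 in HH, 710 in CCH and 278 in HCH, and after weight loss there were 849 in HC and 299 in HHC. Their summed counts ran from 677706 in H to 11251713 in C. The nuclei kept by the filters held unlike shares of a gene's counts over all barcodes. For Plin1 these were 56.5% in C, 20.7% in H, 13.3% in CCH and 12.8% in HCH. For Adrb3 they were 59.2%, 22.9%, 16.5% and 12.5%, so the levels below describe the kept nuclei only. All 13 adipocyte markers were detected in the gated nuclei of every library, with a summed level of 11270.3 to 12006 CPM, the gene's counts divided by the class total and scaled to 1000000, in chow, 12847 to 17897 in HFD libraries and 11250 to 12217 after weight loss. CC and CCC stood apart: of the gated nuclei, 801 of 1525 in CC lay in clusters of another class, and 257 of 1505 in CCC did, with 555 more in clusters of no class. HHC and HCH stood apart the other way: their adipocyte clusters held 1678 and 792 nuclei, of which 280 and 254 had passed the gate, so that values with classes from clusters alone rest there mostly on nuclei outside the gate. The gate also left few nuclei of other classes in CC, with 12 macrophage-gated nuclei there. Some results that rest on CC or CCC are therefore also given for the nuclei that passed the gate and lay in an adipocyte cluster, or with classes taken from clusters alone. Libraries shared 1052 barcodes in all, 1.16% of all barcodes.

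In the GRCm38 annotation (GENCODE vM21) all 9 are protein-coding. Pnpla2 lies at chr7:141455198-141460743, Lipe at chr7:25379527-25398710, Mgll at chr6:88724412-88828360, Abhd5 at chr9:122351608-122381524 and G0s2 at chr1:193272161-193273217. Plin1 lies at chr7:79720218-79732903, Adrb3 at chr8:27225776-27250616, Pde3b at chr7:114415281-114539251 and Aqp7 at chr4:41033074-41048139. Reads in introns were counted with those in exons. G0s2, Lipe, Mgll, Abhd5 and Adrb3 overlap another gene of the matrix on the opposite strand, and whether the counting used strand is not given in the sources used here. The partner of G0s2 is Lamb3, at 32.5 CPM in H and 43.6 in HH and at 9.53 to 16.9 in the other libraries. The partner of Lipe is 4732471J01Rik, an antisense gene at 178 to 213 CPM in chow, 395 in H and 497 in HH.

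Pnpla2, G0s2, Plin1 and Aqp7 had their highest levels in the same libraries, H and HH, and the sequences before their start sites are shown for that reason. Lipe was also highest there in the gate, but both of its windows lie inside the annotated gene and are not shown. The table of RefSeq windows used here (GRCm38.p6) matched 7 of the 9 genes by symbol. The printed bases lie before both the RefSeq start and the annotated gene. The windows are chr7:141454938-141455187 on the plus strand for Pnpla2, chr1:193273218-193273438 on the minus strand for G0s2, chr7:79732904-79733026 on the minus strand for Plin1 and chr4:41048140-41048386 on the minus strand for Aqp7. Capitals mark matches, on either strand, to the nuclear receptor half-site AGGTCA, the C/EBP-type letters TTGCNNAA or the CREB half-site TGACG.
Pnpla2: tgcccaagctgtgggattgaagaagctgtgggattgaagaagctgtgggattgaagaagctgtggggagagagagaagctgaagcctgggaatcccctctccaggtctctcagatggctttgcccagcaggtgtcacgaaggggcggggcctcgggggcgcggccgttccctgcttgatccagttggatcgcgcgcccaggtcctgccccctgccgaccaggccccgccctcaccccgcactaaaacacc
G0s2: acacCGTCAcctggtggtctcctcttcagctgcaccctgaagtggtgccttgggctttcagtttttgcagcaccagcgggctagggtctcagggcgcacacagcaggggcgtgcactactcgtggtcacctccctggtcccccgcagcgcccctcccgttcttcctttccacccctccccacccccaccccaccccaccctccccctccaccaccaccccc
Plin1: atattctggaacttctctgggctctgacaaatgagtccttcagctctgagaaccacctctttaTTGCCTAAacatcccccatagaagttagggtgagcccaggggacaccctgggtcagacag
Aqp7: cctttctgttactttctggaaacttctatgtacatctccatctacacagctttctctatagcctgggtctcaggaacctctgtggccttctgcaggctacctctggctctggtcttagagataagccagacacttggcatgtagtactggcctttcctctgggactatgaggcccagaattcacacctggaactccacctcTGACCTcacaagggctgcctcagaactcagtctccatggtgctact

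The G0s2 window held 1 match to the CREB half-site, which 15% of all RefSeq windows cut to the same bases also held. The Plin1 window held a match to the C/EBP-type letters (5.14% of windows of its length) and the Aqp7 window a match to the nuclear receptor half-site (13.9%). The Pnpla2 window held none of them. The direct repeat of the nuclear receptor half-site with 1 base between, which also counts as a match to the half-site itself, was in none of the 4 windows and in 0.0335% of all windows of 250 bases. These are matches of letters only.

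H and HH stood above all the other 7 libraries for 5 of the 9 genes (Pnpla2, Lipe, G0s2, Plin1 and Aqp7) and below them for 0, beside 19.1% and 11.5% of the 14809 genes tested, a grouping chosen after the values were seen. In the nuclei that also lay in adipocyte clusters these were 4 genes, without Lipe, beside 19.8% of genes there, and Pde3b lay below, beside 9.47%.

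The lipases act in order on the 3 fatty acids of a triglyceride. Pnpla2 (adipose triglyceride lipase, ATGL) removes the first one. It stood at 198 CPM in C, 117 in CC and 99.5 in CCC, against 304 in H and 379.5 in HH. CCH and HCH were at 175 and 158 CPM, and HC and HHC at 85.2 and 131. H and HH were thus above the other 7 libraries with separate counting intervals, whereas both short-HFD libraries lay within the chow range. The log2 ratio of HH to CC was 1.69 (95% interval 1.53 to 1.85, a 3.23-fold difference) and that of H to C 0.62 (0.41 to 0.83). With scaling factors from the trimmed mean of M values (TMM), H to C gave 0.26, outside that interval. Against C, the chow library of its own sequencing set, HH gave 0.94 (0.81 to 1.07), not past 2-fold. Intervals here and below cover counting error only, exact Poisson for levels and exact conditional for ratios, not differences between mice or libraries.

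Lipe encodes hormone-sensitive lipase, which takes the diglyceride. Its level ran from 813 CPM in HC to 1010.8 in HH, and the 3 chow libraries stood at 949, 813 and 933 CPM. The highest library was 1.24 times the lowest, and each library's counting interval overlapped that of its neighbour in the order of levels. Among the 4013 genes with at least 50 CPM on average, 0.748% had as narrow a range, and Lipe was singled out for this after the values were seen. That range is of the gate and of CPM without scaling factors. H with C gave a log2 ratio of 0.04, but -0.32 with TMM factors and -0.21 without the upper limit on genes. With classes from clusters alone, the edgeR fit described below gave Lipe -0.58 for weight loss against chow (adjusted p = 0.722). When only gated nuclei in adipocyte clusters were taken, the chow libraries stood at 981 to 1124 CPM and both weight-loss libraries, at 857 and 974 CPM, below them, as for 14.2% of all genes there. CCH at 930 and HCH at 872 CPM were also below chow, while H at 987 and HH at 1016 were not. The interval of HHC (920 to 1031) spanned the level of C.

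Mgll encodes monoacylglycerol lipase, which takes the last fatty acid and also degrades an endocannabinoid. It stood at 592 CPM in C, 1172 in CC and 1056 in CCC. H was at 1077 CPM, HH at 965, CCH at 732 and HCH at 744. After weight loss HC was at 1951 CPM and HHC at 1194, both above every chow library, though HHC overlapped CC in its counting interval. HH with CC gave a log2 ratio of -0.28 (-0.36 to -0.20), and -0.70 in gated nuclei of adipocyte clusters, but HH with C, the chow library of its own sequencing set, gave 0.71 (0.63 to 0.79). Mgll was the 1 gene of the 9 with both weight-loss libraries above chow, beside 8.14% of all genes, and Adrb3 the 1 with both below, beside 17.1%. In the nuclei that also lay in adipocyte clusters the weight-loss and chow libraries overlapped for Mgll, at 1217 and 1916 CPM against 598 to 1560.5. The macrophage marker list, all or all but 1 of whose 12 genes were detected in the adipocyte gate, summed to 138 to 472 CPM in chow, 192 to 732 in HFD libraries and 540.1 to 1418 after weight loss, and its part in the Mgll values was not tested.

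**Figure D1:**
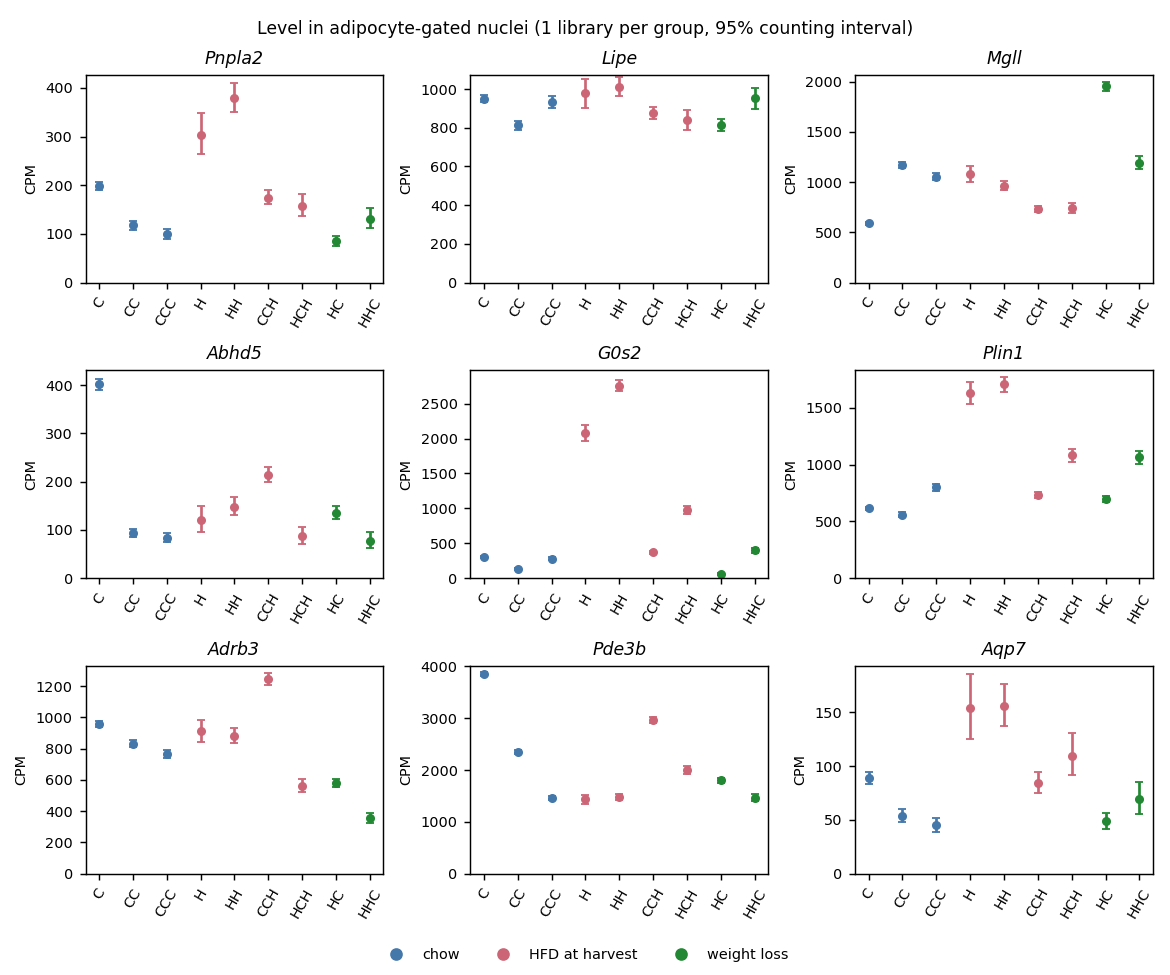
Level of each lipolysis gene (CPM, linear axis from 0) in adipocyte-gated nuclei of the 9 libraries, coloured by diet at harvest, with 95% Poisson intervals. G0s2, Plin1, Pnpla2 and Aqp7 peak in H and HH, Lipe stays between 813 and 1010.8 CPM, and Adrb3 is lowest in HHC, HCH and HC.

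G0s2 and Abhd5 set the activity of ATGL. G0s2 is its protein inhibitor and had the widest range of the 9 genes. It stood at 302 CPM in C, 132 in CC and 279.6 in CCC, against 2076 in H and 2759.7 in HH. CCH was at 373 CPM and HCH at 977, so that all 4 HFD libraries lay above all 3 chow libraries, CCH by little. G0s2 was the only one of the 9 to do so, beside 9.14% of all genes, and 0 had all HFD libraries below chow, beside 6.29%. HC was at 59.3 CPM, the lowest library, and HHC at 398, above the chow range, and the weight-loss libraries lay on both sides of chow.

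The log2 ratio of G0s2 was 2.78 (2.69 to 2.87) for H with C, a 6.87-fold difference, and 4.39 (4.27 to 4.50) for HH with CC, a 20.9-fold difference. Against C, HH gave 3.19 (3.13 to 3.26). HCH exceeded CCH by 1.39 (1.27 to 1.51). In CC, the level of G0s2 in progenitor-gated nuclei was 99.8 CPM, on 89 nuclei, against 132 in the adipocyte gate. With the progenitor level subtracted in both libraries, HC with CC moved from -1.15 to 0.34. The same subtraction moved HH with CC from 4.39 to 6.37 and CCH with CC to 3.33, and it rests on 28 progenitor counts in CC. HHC with CCC gave 0.51 (0.35 to 0.66), but -0.16 with classes from clusters.

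Abhd5 (CGI-58) is the protein that activates ATGL. It stood at 402 CPM in C but at 93.6 in CC and 83.7 in CCC, so that the chow libraries spanned 4.80-fold. C differed from CC and CCC in control diet and sequencing set as well as age. H was at 121 CPM, HH at 148, CCH at 215 and HCH at 86.9, and the weight-loss libraries at 136 and 77.8. All HFD and weight-loss libraries lay between the extremes of chow except HHC, which overlapped CCC in its interval. The sign of the difference therefore followed the chow library used: H with C gave -1.73 (-2.07 to -1.42) and HH with CC 0.66 (0.43 to 0.88), while HH with C gave -1.44 (-1.63 to -1.25). In gated nuclei of adipocyte clusters HH with CC was 0.39 (0.15 to 0.62).

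Plin1 (perilipin 1) coats the droplet, holds Abhd5 in the basal state and releases it when phosphorylated. It stood at 614, 558 and 799 CPM in C, CC and CCC. H was at 1626 CPM and HH at 1705, overlapping in their intervals, followed by HCH at 1080.2 and HHC at 1063. CCH at 731 and HC at 699 lay inside the chow range. The log2 ratio was 1.41 (1.31 to 1.498) for H with C and 1.61 (1.54 to 1.69) for HH with CC, and HHC with CCC gave 0.41 (0.32 to 0.50). The last of these turned to -0.55 with classes from clusters and was 0.18 in gated nuclei of adipocyte clusters.

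Signals reach the lipases through Adrb3 and are cut short by Pde3b. Adrb3, the beta-3 adrenergic receptor of fat cells, stood at 959, 832 and 766 CPM in the chow libraries C, CC and CCC. H and HH, at 910.4 and 884 CPM, lay inside that range, and CCH at 1246 was the highest library. HC was at 578 CPM, HHC at 355 and HCH at 564. The 3 lowest libraries were thus the 3 in which chow followed an earlier HFD, and their intervals were apart from those of the other 6, a grouping chosen after the values were seen.

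Adrb3 was 2.16-fold lower in HHC than in CCC (log2 ratio -1.11, -1.26 to -0.97) and 1.44-fold lower in HC than in CC (-0.53, -0.60 to -0.45). HCH with CCH gave -1.14 (-1.26 to -1.03). Among the 14809 genes of the fits, 1.24% had HC, HHC and HCH all below the other 6 libraries and 0.743% all above. These libraries were picked from the order of Adrb3 itself, so such shares do not measure how unusual that order is. The order held for Adrb3 in nuclei that also lay in adipocyte clusters, with 612, 365 and 587 CPM against 891 to 1324, beside 1.13% of genes. With scaling factors from the trimmed mean of M values (TMM), HHC with CCC gave -0.98, and with the progenitor level subtracted -0.999, both just inside 2-fold. It gave -2.10 with classes from clusters and -1.34 in gated nuclei of adipocyte clusters, where HC with CC gave -0.81. The TMM factors were 0.878 for HC and 1.11 for CCC, which bring their Adrb3 levels closer than in CPM. Whether their intervals stay apart on that scale is not given here.

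Pde3b is the phosphodiesterase that insulin activates to break down cyclic AMP. It stood at 3852 CPM in C, 2355 in CC and 1460.5 in CCC. H was at 1434 CPM, HH at 1471, HC at 1802, HHC at 1460.5 and HCH at 2005, and CCH, at 2968, was the only HFD library above CC. The chow libraries differed in age, and C also differed in control diet and sequencing set. In the gate they spanned 2.64-fold. Except for H, every other library lay within that span. In gated nuclei of adipocyte clusters chow ran from 1845 to 4007 CPM, and H at 1457, HH at 1482 and HHC at 1502 lay below it. H with C gave -1.43 (-1.52 to -1.33), while HH with CC gave -0.68 (-0.74 to -0.62) and HHC with CCC 0.00 (-0.08 to 0.08). In those cluster nuclei the ratios for HH with CC and HHC with CCC were -0.99 (-1.06 to -0.93) and -0.30 (-0.37 to -0.22), and with classes from clusters -1.01, past 2-fold, and -0.96.

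Aqp7 is the channel through which glycerol leaves the fat cell. It stood at 88.5 CPM in C, 54.0 in CC and 44.9 in CCC, on 176 to 996 counts. H was at 153 CPM, HH at 156 and HCH at 109.7, whereas CCH at 84.2, HC at 48.5 and HHC at 69.1 lay inside the chow range. HH with CC gave a log2 ratio of 1.53 (1.28 to 1.78) and H with C 0.79 (0.49 to 1.09), while HH with C gave 0.82 (0.61 to 1.02), not past 2-fold. With the progenitor level subtracted, which rests on 8 counts in CC, HH with CC moved to 2.56. Each Aqp7 interval overlapped that of the next library in the order of levels.

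**Figure D2:**
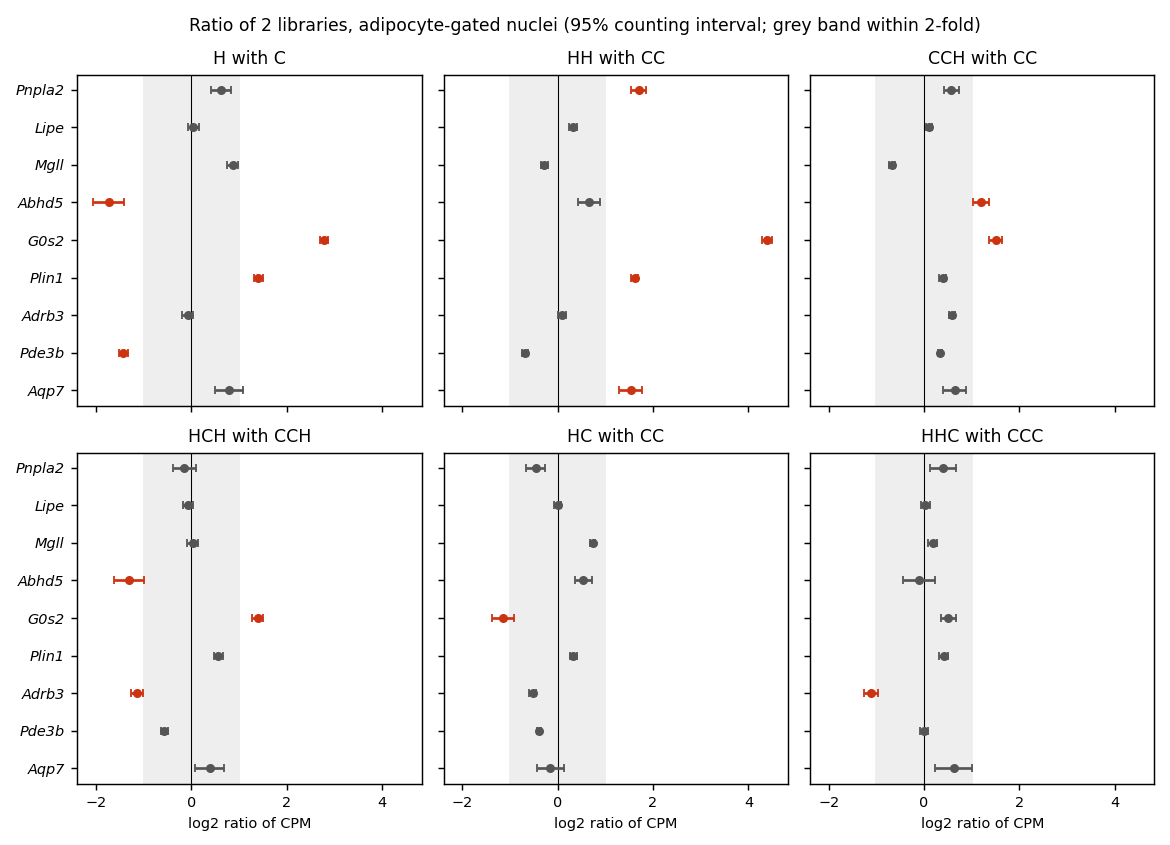
log2 ratio of CPM between paired libraries for each lipolysis gene, with 95% exact conditional intervals and a grey band within 2-fold. Red points lie past 2-fold. G0s2 does so in H, HH, CCH and HCH upward and in HC downward, and Adrb3 in HHC and HCH downward. Plin1 does so in H and HH upward, and Pnpla2 and Aqp7 in HH upward. Abhd5 is red in CCH upward and in H and HCH downward, and Pde3b in H downward.

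The pairs ask what HFD, weight loss and renewed HFD did at a similar age. With 1 library a group there was no test, and a gene is counted where the ratio passed 2-fold; all 9 genes had at least 20 counts in every pair. For H with C, G0s2 and Plin1 were at least 2-fold higher, beside 26.2% of all genes with enough counts, and Abhd5 and Pde3b at least 2-fold lower, beside 8.79%. For HH with CC, 4 genes (Pnpla2, G0s2, Plin1 and Aqp7) were higher, beside 22.1%, and 0 lower, beside 18.2%. Against C in place of CC, HH had G0s2 and Plin1 higher and Abhd5 and Pde3b lower, beside 26.8% and 10.3%. The shares of all genes past 2-fold were thus large in H and HH, and the median log2 ratio over all genes was itself 0.26 for H with C. With TMM factors, H with C gave 0.50 for Mgll, 2.42 for G0s2 and -2.09 for Abhd5, each outside its interval.

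After weight loss fewer of the 9 genes were past 2-fold. For HC with CC this was G0s2 alone, lower, beside 15.8% of genes, and for HHC with CCC Adrb3 alone, lower, beside 15.2%. The G0s2 call was lost with TMM factors (-0.997) and without the upper limit on genes (-0.65), and turned with the progenitor level subtracted. None was at least 2-fold higher in either pair, beside 4.05% and 5.23% of genes. The 9 genes had a median log2 ratio of -0.15 in HC with CC and 0.18 in HHC with CCC, against -0.18 and -0.12 over all genes. In gated nuclei of adipocyte clusters the medians of the 9 were -0.23 and -0.034.

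For 4 weeks of first HFD, CCH with CC, Abhd5 (1.20, 1.03 to 1.36) and G0s2 (2.83-fold, log2 interval 1.37 to 1.63) were at least 2-fold higher, beside 7.15% of all genes, and 0 were lower, beside 14%. Neither was past 2-fold against C, where Abhd5 gave -0.90 (-1.02 to -0.79) and G0s2 0.30 (0.21 to 0.40), and no other gene of the 9 was, beside 11% of genes higher and 3.12% lower. With classes from clusters, 1 of the 9 was at least 2-fold higher in CCH with CC and 1 lower, and no share of all genes is given for that setting. For renewed against first short HFD, HCH with CCH, both libraries were of set S075 and equal age. G0s2 was higher, beside 11.9% of all genes, and Abhd5 (-1.30, -1.62 to -1.01) and Adrb3 were lower, beside 6.2%. With classes from clusters G0s2 gave 0.90 in this pair and was not past 2-fold, and without the upper limit on genes Abhd5, at -0.78, was not.

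In nuclei that also lay in adipocyte clusters the same genes of the 9 were past 2-fold in every pair, and Mgll was added as lower in CCH than in CC. The shares of all genes there, at least 2-fold higher and lower, were 27.5% and 7.54% for H with C, 26.2% and 10.2% for HH with CC, and 29.2% and 7.69% for HH with C. They were 5.03% and 7.08% for HC with CC, and 6.65% and 7.27% for HHC with CCC. For CCH with CC they were 8.72% and 7.32%, for CCH with C 10.5% and 3.52%, and for HCH with CCH 12.8% and 4.79%.

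To use the spread between libraries, the libraries of one diet state at harvest were treated as replicates in an edgeR quasi-likelihood fit over 14809 genes, with 3 chow, 4 HFD and 2 weight-loss libraries. These differ in age and diet length, and C also differs from CC and CCC in control diet and sequencing set. The p-values therefore measure the spread between such groups. With Benjamini-Hochberg adjustment, 0 of the 9 genes passed 0.05 for HFD at harvest against chow, for weight loss against chow or for weight loss against HFD, and no gene of the whole table did (0% in each direction of each comparison). At an unadjusted p under 0.05 stood 3 of the 9 for HFD against chow, beside 3747 of all genes (25.3%).

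G0s2 had the largest fitted difference of the 9 between HFD and chow, 2.55 on the log2 scale (SE 0.74, adjusted p = 0.106). Plin1 followed with 0.86 (SE 0.29, adjusted p = 0.128) and Aqp7 with 0.83 (SE 0.33, adjusted p = 0.153). Pnpla2 gave 0.71 (SE 0.38, adjusted p = 0.259), Abhd5 -0.62, Pde3b -0.52, Mgll -0.18, Lipe -0.07 and Adrb3 -0.03, with adjusted p from 0.259 to 0.967 in edgeR. DESeq2, as an alternative, called G0s2 higher in HFD libraries (2.53, SE 0.63, adjusted p = 0.00412) and none of the other 8, beside 4.78% of genes called higher and 3.06% lower. With H and HH alone as the HFD libraries, edgeR called G0s2 (3.18, SE 0.68, adjusted p = 0.0230) and Plin1 (1.20, SE 0.26, adjusted p = 0.0227), beside 9.06% of genes called higher and 7.04% lower. With sequencing set as a term, G0s2 gave 2.04 and Plin1 0.77, both at an adjusted p of 0.401 in edgeR, and Pnpla2 moved to 0.06 and Aqp7 to 0.21. Without C, Pnpla2 gave 1.22 and Aqp7 1.33, and without CCC or HH Pnpla2 gave 0.47.

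For weight loss against chow the edgeR fit gave 0.85 for Mgll (SE 0.34, adjusted p = 0.470) and -0.81 for Adrb3 (SE 0.41, adjusted p = 0.567), and between -0.87 and 0.47 for the other 7. Mgll gave 0.31 without HC and 1.23 without HHC, and Adrb3 -1.34 without HC and -0.43 without HHC. One gene of the 9, Mgll, had an unadjusted p under 0.05, beside 1426 of all genes, and DESeq2 called 0 of the 9, beside 0.185% of genes higher and 0.254% lower. The weight-loss libraries were all of set S019 and the HFD libraries all of S075, so that only chow was in both sets. For weight loss against HFD at harvest, G0s2 gave -2.65 (SE 0.88, adjusted p = 0.165 in edgeR) and Pnpla2 -1.08 (SE 0.45, adjusted p = 0.227). Mgll gave 1.03 (SE 0.32, adjusted p = 0.148), and 4 of the 9 had an unadjusted p under 0.05, beside 2806 of all genes. With sequencing set as a term, G0s2 gave -1.80 (SE 1.39, adjusted p = 0.639 in edgeR), Mgll 0.38 and Pnpla2 0.042. Without HC or HHC, G0s2 gave -1.92 or -4.40 and Mgll 0.47 or 1.43. DESeq2 called G0s2 alone lower after weight loss than on HFD (-2.65, SE 0.71, adjusted p = 0.0139), beside 2.31% of genes, and none higher, beside 1.86%. With H and HH alone as the HFD libraries, edgeR called 0 of the 9 for weight loss against HFD, beside 1.07% of genes higher and 1.92% lower, with 5 of the 9 and 4032 of all genes at an unadjusted p under 0.05.

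**Figure D3:**
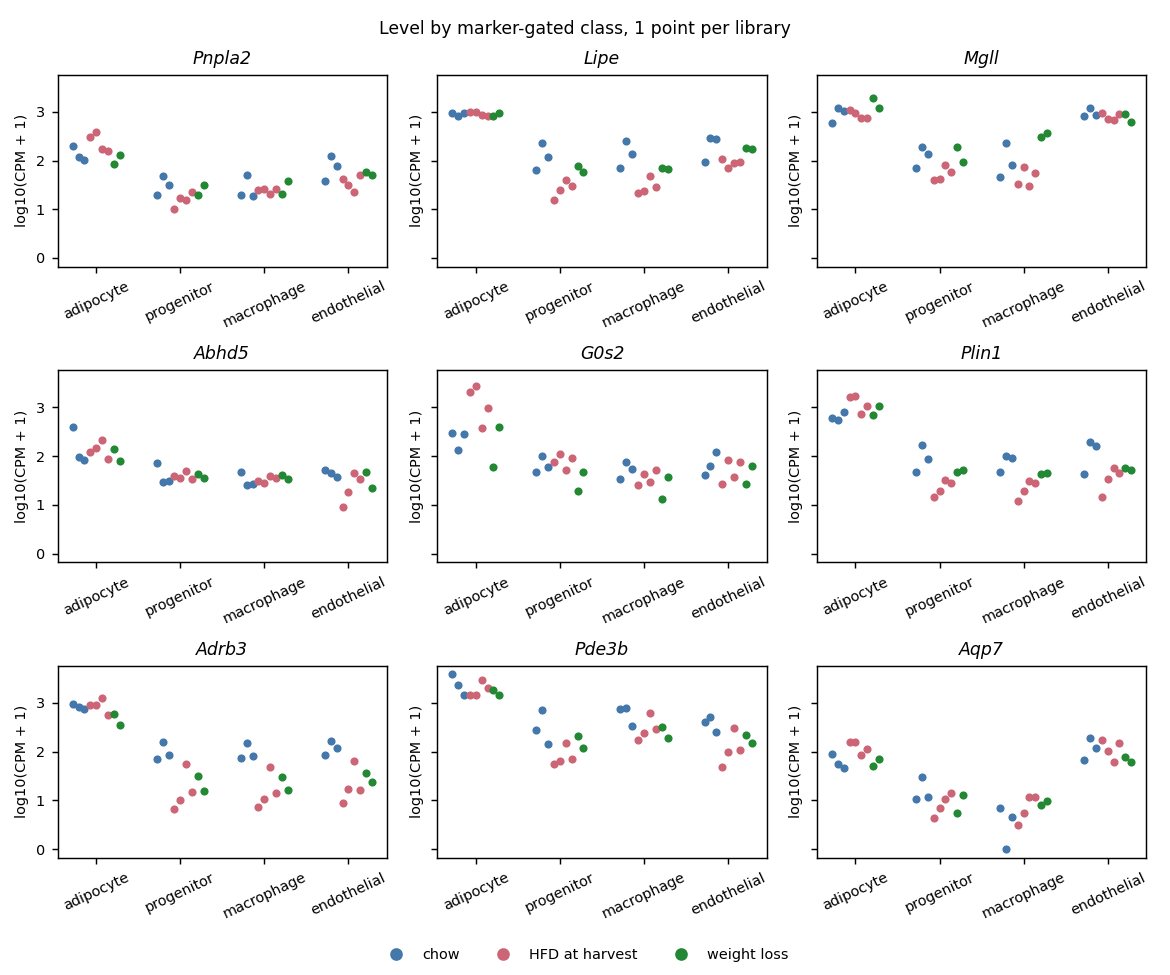
Level of each lipolysis gene, as log10(CPM + 1), in adipocyte-, progenitor-, macrophage- and endothelial-gated nuclei, 1 point a library, coloured by diet at harvest. Mgll and Aqp7 reach adipocyte levels in endothelial nuclei. Lipe, Plin1 and Adrb3 lie lower in the other gates shown than in the adipocyte gate of every library, with their highest levels there in CC.

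Lipe, Plin1, Adrb3, Abhd5, G0s2 and Pde3b were higher in the adipocyte gate than in progenitor, macrophage and endothelial gates of every library. Adrb3 in the adipocyte gate was a median of 23.1 times its level in progenitor-gated nuclei (5.43 to 161 over the 9 libraries) and 23.4 times that in macrophage-gated nuclei. Plin1 was a median of 21.3 times the progenitor level (3.26 to 121), and Lipe 16.3 times (3.57 to 68.5). Against endothelial-gated nuclei the medians were smaller, 16.7 for Adrb3 (5.16 to 115), 14.4 for Plin1 (2.83 to 118) and 9.22 for Lipe (2.84 to 14.7). That of Pde3b was 9.75 (4.53 to 30.3). Outside adipocytes, Adrb3 reached 153 CPM in progenitor-gated and 161 in endothelial-gated nuclei, both of CC, and 164 in mesothelial-gated nuclei of C on 21 counts. Aqp7 ran from 0.00 to 10.8 CPM in macrophages. The progenitor and macrophage gates differed for other members, with G0s2 at 74.4 and 24.4 CPM in H and Pde3b at 54.7 and 173. How much of these levels was free RNA was not tested.

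Mgll and Aqp7 were not confined to adipocytes. In endothelial-gated nuclei Mgll stood at 605 CPM in HHC to 1183 in CC, and exceeded the adipocyte level of the same library in 3 of 9 libraries. Its level in progenitor and macrophage gates of the same libraries was 38.7 to 192 and 29.7 to 374 CPM. Aqp7 stood at 59.2 to 188 CPM in endothelial nuclei and exceeded the adipocyte level in 5 of 9 libraries, against 3.32 to 28.5 CPM in progenitors. In classes of few nuclei, Mgll stood at 1442 CPM in epithelial-gated nuclei of C, 30 nuclei with 134 counts. Pde3b stood at 1040 CPM in the 35 T or NK cell-gated nuclei of H (52 counts), 979 in the 59 of C, 890 in mast cell-gated nuclei of HH and 861 in B cell-gated nuclei of CCH. In HH, however, it stood at 338 CPM in 114 T or NK cell-gated and 409 in 90 B cell-gated nuclei.

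In macrophage-gated nuclei, Mgll stood at 298 CPM in HC and 374 in HHC. The other libraries were at 29.7 to 81.4 CPM, except CC, whose 223 CPM rested on 9 counts in 12 nuclei. Both weight-loss libraries were thus above the other libraries with more than 12 such nuclei. Assigned by clusters in place of the gate, macrophages had 330.0 and 319 CPM of Mgll in HC and HHC, 288 in CC on 616 nuclei and 181 in CCC, with CC and CCC of the same sequencing set, and every library of set S075 was lower, H lowest at 19.8. Pde3b was the member with the smallest median gap between adipocytes and macrophages apart from Abhd5, 5.74-fold, and stood at 173 to 794 CPM in macrophage-gated nuclei.

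The share of nuclei with at least 1 count was compared after each nucleus had been thinned to 1000 counts, leaving 155 adipocyte-gated nuclei in H and 2238 in C. G0s2 was then detected in 68.4% of nuclei in H (exact 95% interval 60.4 to 75.6) and 78.5% in HH (73.9 to 82.6), against 25.1% in C, 13.3% in CC and 23.1% in CCC. CCH was at 26.3% and HCH at 44.8%, HC at 5.6% (4.1 to 7.4) and HHC at 28.7%. Before thinning, the G0s2 shares were 84.7% in H, 93.5% in HH and 59.3% in C. In macrophage-gated nuclei, set beside them although whether macrophages express G0s2 was not tested, 1.43% to 5.02% had a G0s2 count except for CC with 11 such nuclei, at median depths of 2081.5 to 3322 counts outside CC against 2262 to 5065.5 for adipocytes. The order of the G0s2 shares followed its CPM, and the share in HC was nearest to those of macrophages.

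**Figure D4:**
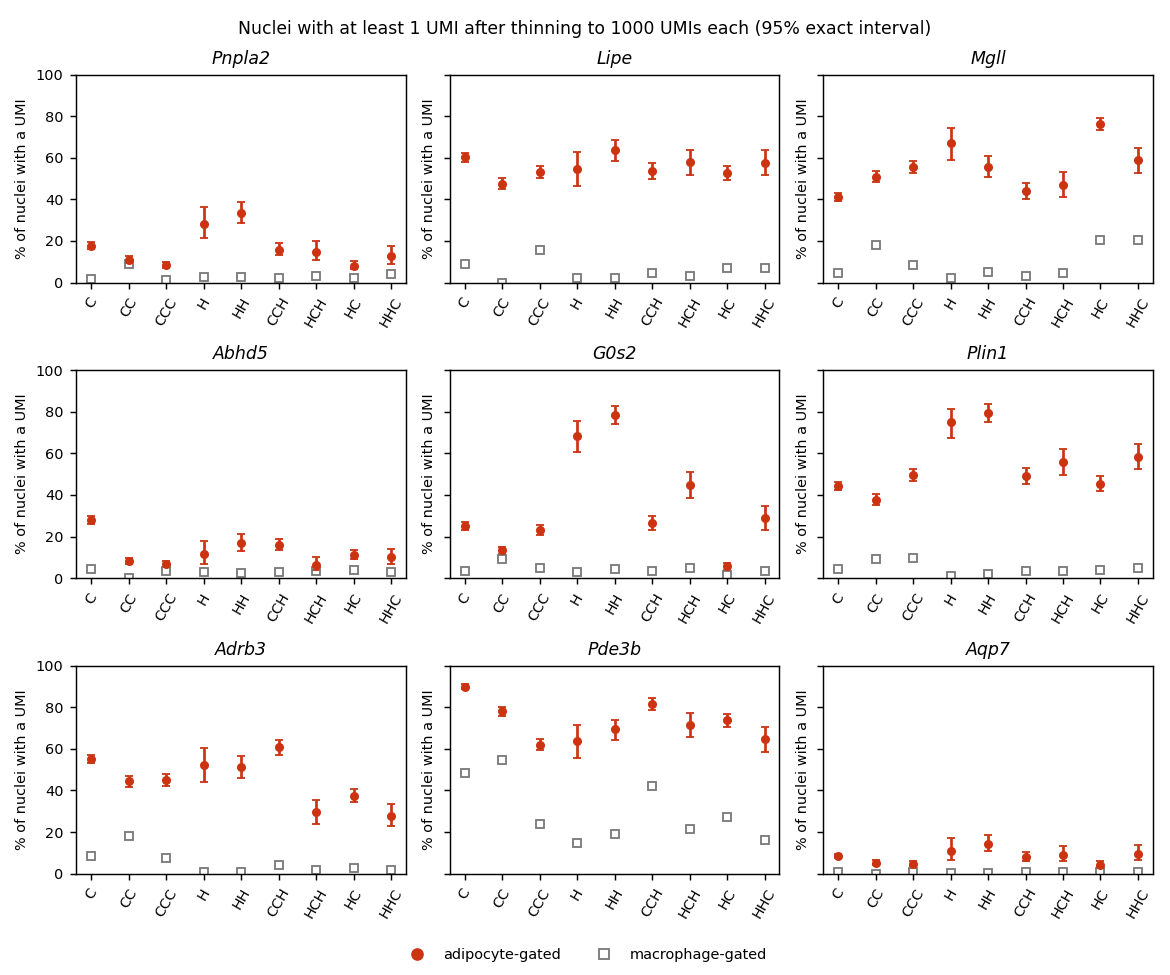
Percentage of adipocyte-gated nuclei (red, with exact 95% intervals) and macrophage-gated nuclei (grey squares) with at least 1 count of each gene after thinning to 1000 counts a nucleus. G0s2 reaches 68.4% in H and 78.5% in HH, and Adrb3 is below 40% only in HC, HHC and HCH.

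Adrb3 was detected after thinning in 37.5% of adipocyte-gated nuclei in HC (34.3 to 40.9), 27.9% in HHC (22.7 to 33.7) and 29.5% in HCH (24.0 to 35.4). The other libraries ran from 44.4% in CC to 60.8% in CCH. Before thinning the shares were 72.1%, 51.8% and 62.2% in those 3 libraries and 60.8% to 86.3% in the others. In macrophage-gated nuclei 0.7% to 8.5% had an Adrb3 count outside CC.

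Over all kept nuclei of the tissue, the level of a gene also carries the share of adipocytes. The gate held 1.63% of kept nuclei in H and 21.1% in C, while a gated nucleus had a median of 4613 counts in H and 4658 in C. The adipocyte gate held 32.7% to 42.9% of all counts in chow libraries and 2.68% to 14.2% in HFD libraries. After weight loss it held 20.5% of the counts of HC and 4.89% of those of HHC. Lipe, whose CPM within the adipocyte gate hardly varied, stood at 423 CPM over all nuclei of C and 52.8 in H. G0s2, at 243 CPM over all nuclei of HH, was above the 116 of CC, whereas in H it stood at 99.7 against 146 in C. Over all nuclei, 9 of the 9 genes were lower in H than in C. In HH with CC 8 were lower, and G0s2 alone was higher. How all genes of the matrix moved at the tissue level was not analysed here.

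A list of 69 other genes of the pathway, grouped by role, was counted alongside. In the edgeR fit 65 of them were tested, and 0 passed an adjusted p of 0.05 in either direction of the 3 comparisons, with 18 at an unadjusted p under 0.05 for HFD against chow, beside 3747 of all 14809 genes, and 10 for weight loss against chow, beside 1426. DESeq2 called 6 higher and 3 lower for HFD against chow, beside 4.78% and 3.06% of all genes, and 1 in each direction for weight loss against chow, beside 0.185% and 0.254%. In H with C, 15 of the 64 with enough counts were at least 2-fold higher and 7 lower, beside 26.2% and 8.79% of all genes. In HH with CC 13 of 63 were higher and 9 lower, beside 22.1% and 18.2%. Of the 8 genes that regulate ATGL or coat droplets, 1 of 8 roles and singled out after the values were seen, 6 were at least 2-fold higher in each of these pairs, and Plin2, Plin4, Hilpda, Fabp4 and Fabp5 were so in both. In HC with CC, Fabp4 and Fabp5 were at least 2-fold lower and Cidea higher. In weight loss 2 of 62 were higher and 9 lower for HC with CC, beside 4.05% and 15.8%, and 4 of 61 and 10 for HHC with CCC, beside 5.23% and 15.2%.

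All 4 HFD libraries lay above all chow libraries for 7 of the 69, beside 9.14% of all genes, and below for 6, beside 6.29%. Both weight-loss libraries lay above all chow libraries for 9 of the 69, beside 8.14%, and below for 10, beside 17.1%. The following were chosen after their values were seen. Npr3, the receptor that clears natriuretic peptides, stood at 742 to 1568 CPM in chow and 2194 to 2576 in the HFD libraries, and was called by DESeq2 (log2 1.01, SE 0.23, adjusted p = 0.00134). Prkg1, a cyclic GMP-dependent kinase, stood at 61.0 to 190.0 CPM in chow and 14.8 to 47.3 in HFD libraries. Gk, the glycerol kinase, stood at 50.7 to 149 CPM in chow and 16.7 to 18.5 after weight loss. In nuclei that also lay in adipocyte clusters, Gk ran from 31.4 to 51.7 CPM in chow, and 16.3 to 17.2 after weight loss, still below.

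Genes whose levels over the 9 libraries ran most like each of the 9 were found among 4013 genes with at least 50 CPM on average, by Pearson's r of log2(CPM + 5). The points share libraries, depth and the adipocyte gate, so r is a description. For G0s2 they were Ppil2, Cebpg and Cbwd1 (r from 0.986 to 0.997), for Pnpla2 B3galt2, Sf3b3 and Immp1l (0.972 to 0.981) and for Aqp7 Gm3289, Pdk4 and Blcap (0.972 to 0.996). For Plin1 they were 1500004A13Rik, Fam53b and Taf1d (0.987 to 0.992). For Pde3b they were Jarid2, Tlk2 and Asph, for Abhd5 Lrig3, Fbxo45 and Bnip3, and for Mgll Lrrc8d, Med27 and Eif4g1, with r from 0.945 to 0.976. Adrb3 was followed less closely, by 5031425E22Rik, Usp33 and Dhdds (0.880 to 0.904), and so was Lipe, by Rsrc2, Acad10 and Stk19 (0.870 to 0.879).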

How the data were processed

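Nuclei of epiAT from 9 diet groups were profiled with the 10x Genomics 3' kit, 1 library of 5 pooled mice each. The deposited matrices hold raw counts of unique molecular identifiers per gene and barcode, which the authors made with Cell Ranger 6.1.2 on the 10x GRCm38 reference with intronic reads included; Seurat 4.1.0 is also named in the submitters' processing notes. By its methods the study estimated free RNA with SoupX and corrected no sample, and that estimate was not repeated here. Library totals were 22599619 to 66615262 counts.

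The limits of the study were applied to each nucleus (500 to 3000 detected genes, no more than 40000 counts). From 6.92% of barcodes in HH to 24.1% in CCH lay above the gene limit, with 9.62% in C. Doublets were removed per library with Scrublet (scanpy 1.11.5), by its automatic threshold in C, H, HH, CCH and HCH (2.09% to 5.57% of nuclei). In CC, CCC, HC and HHC that threshold marked under 0.5%, and the expected rate of 0.8% per 1000 nuclei was removed. Classes were assigned per nucleus from 112 markers of 12 classes, and for alternatives from Leiden clusters of each library (leidenalg 0.10.2). CPM were summed counts of a class over its total, without mitochondrial genes and Malat1. Pairs of libraries were compared by ratio, called past 2-fold, with 95% intervals; genes needed 20 counts over both libraries, and a count of 0 was set to 3. edgeR 4.0.16 (quasi-likelihood, TMM, low-count filter) and DESeq2 1.42.0 in R 4.3.3 compared diet states, with Benjamini-Hochberg adjustment at 0.05. The edgeR step was tested on simulated data for HFD against chow on 14316 genes, where it recovered 95 of 100 genes changed 4-fold and 23 of 100 changed 2-fold, with 3 false calls among 14116. The simulated counts had the same dispersion for every gene. They held no differences of age, diet length or sequencing set within a state, so this recovery does not give the power of the fit on these data. The exact ratio intervals were also tested on simulated counts.

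Genes named were all 9 members, pathway genes past an adjusted p of 0.05 in edgeR (none), and for each member the 3 genes most like it. Npr3, Prkg1, Gk, Plin2, Plin4, Hilpda, Fabp4, Fabp5 and Cidea were named outside that rule, after their values were seen. Lamb3 and 4732471J01Rik were also outside it, and were named as genes that overlap a member. The members, marker lists and pathway list were chosen with earlier results of these data known. Alternatives were other gates, clusters, filters, scalings, tools, a sequencing-set term and leaving out each library. The check against mesothelial nuclei was not run, because 7 libraries had fewer than 20 of them, and progenitor nuclei were used instead.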

Additional observations from a re-analysis of the deposited data

Results flagged for a closer look

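Mgll, Abhd5, Pnpla2 and G0s2 differed in direction between the shorter and the longer diet course, with counting intervals on opposite sides of 0. These differences were not tested, since each side is 1 pair of libraries. Mgll was higher in H than in C (log2 ratio 0.86) and lower in HH than in CC (-0.28), though higher in HH than in C (0.71). Abhd5 was lower in H than in C (-1.73) and higher in HH than in CC (0.66). In weight loss, Pnpla2 was lower in HC than in CC (-0.46) and higher in HHC than in CCC (0.40), and G0s2 was lower in HC than in CC (-1.15) and higher in HHC than in CCC (0.51). In gated nuclei of adipocyte clusters the second Pnpla2 ratio was 0.12 with an interval of -0.17 to 0.41, which spans 0. For G0s2, the HC ratio turned to 0.34 with the progenitor level subtracted and the HHC ratio to -0.16 with classes from clusters. For Mgll and Abhd5, the chow libraries C and CC differed from each other by more than H and HH did: Mgll stood at 592 CPM in C and 1172 in CC against 1077 in H and 965 in HH, and Abhd5 at 402 and 93.6 CPM against 121 and 148. No gene of the 9 had an HFD library set apart from the other 3 by Dixon's criterion for 4 samples, a check that chance alone trips in about 1 in 20 groups.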

How the results depend on the processing

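With 1 library a group, each pair rests on counting error alone, and CC and CCC limit every ratio taken against them. No paired analysis was possible because each group is 1 library, so that groups share fewer than 2 replicate numbers. A fit with age as a block was not run. Of 450 pair ratios under alternatives, 294 stayed inside the interval of the ratio as reported and 156 fell outside it. In all, 42 changed sign, of which 2 were of ratios past 2-fold as reported. Of 567 fitted values, 513 kept their direction and side of the threshold, 9 passed it and 45 changed sign. Unless stated, the cause was not tested.

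Among counts of the 9 genes past 2-fold, HH with CC had 2 higher and 2 lower against C and 1 lower with classes from clusters. HC with CC had 0 lower without the upper limit on genes, with TMM factors or with the progenitor level subtracted, and HHC with CCC had 0 lower with the last of these and with TMM factors. CCH with CC had 1 higher with clusters, 4 with the progenitor level subtracted and 0 against C, and 1 lower with clusters or with gate and cluster together. HCH with CCH had 0 higher with clusters and 1 lower without the upper limit on genes. Shares of all genes past 2-fold are not given for clusters, TMM factors, progenitor subtraction or the lifted gene limit. Counts under those settings therefore cannot be set against other genes. Among ratios past 2-fold, those that changed sign were G0s2 in HC with CC (0.34, progenitor level subtracted) and Abhd5 in CCH with CC (-0.90, against C).

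In the edgeR fits, HFD against chow called 1 of the 9 higher without the low-count filter, beside 617 of all genes, 1 in DESeq2 (742), 2 with H and HH alone (1342) and 0 to 2 with each library left out (0 to 1338). Without C it was Aqp7 (1.33, adjusted p = 0.0417), beside 110 genes called higher, and without CCH they were G0s2 (2.88, adjusted p = 0.0242) and Plin1 (1.04, adjusted p = 0.0307), beside 1338. Weight loss against HFD called 1 lower without the filter, beside 177 genes, and 1 in DESeq2, beside 326, G0s2 in both.

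Sign changes in the fits were as follows. For HFD against chow, Mgll gave 0.28 with the sequencing-set term and 0.27 with that term and gate and cluster together. With each library left out, Lipe ran from -0.12 to 0.10, Mgll from -0.34 to 0.048, Abhd5 from -1.00141 to 0.72, Adrb3 from -0.27 to 0.19 and Pde3b from -0.84 to 0.055. For weight loss against chow, the set term gave 0.11 for Pnpla2, 0.45 for Abhd5, 0.24 for G0s2 and 0.36 for Aqp7. With gate and cluster together as well, it gave -0.18 for Lipe, 0.15 for Abhd5, 0.026 for G0s2 and 0.21 for Aqp7. Lipe gave -0.042 without the filter, -0.58 with clusters and -0.21 with gate and cluster together, Plin1 -0.21 with clusters, and G0s2 0.15 without the upper limit on genes. With each library left out, Pnpla2 ran from -0.61 to 0.10, Lipe from -0.053 to 0.15, Abhd5 from -1.46 to 0.45, G0s2 from -1.87 to 0.67 and Aqp7 from -0.35 to 0.36. For weight loss against HFD, the set term gave 0.042 for Pnpla2, 2.19 for Abhd5, 1.14 for Pde3b and 0.16 for Aqp7. With gate and cluster together as well, it gave -0.058 for Mgll, 1.93 for Abhd5, 0.79 for Pde3b and 0.065 for Aqp7. Lipe gave -0.17 with clusters and Pde3b 0.39 with H and HH alone, and with each library left out Abhd5 ran from -0.88 to 0.16 and Pde3b from -0.43 to 0.19. The libraries whose omission changed these signs were, for HFD against chow, C (Lipe, Abhd5, Adrb3, Pde3b), CC (Mgll), and HH and HCH (Adrb3). For weight loss against chow they were C (Pnpla2, Abhd5, G0s2, Aqp7), HC (G0s2, Aqp7), and CC, CCC and HHC (Lipe), and for weight loss against HFD they were HHC and CCH (Abhd5, Pde3b).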
